A study of Mus musculus with 12 samples.

Results

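The 10 genes described here are the urea cycle genes Nags, Cps1, Otc, Ass1, Asl and Arg1, and the genes Gls2, Glud1, Hal and Tat, whose enzymes release ammonia or pass on amino groups. They were picked by gene symbol, through the RefSeq accession of their array probes, and the rule used no threshold on a measured value. They are 10 of 16916 genes tested and 13 of 39429 probes on the array, and all 13 probes were well above background on all 12 arrays. The mice were male, on the C57BL/6 strain and 30 weeks old, and all carried loxP-flanked alleles of Phgdh. The control group, Floxed, was Phgdh flox/flox (n = 6). The other group, LKO, was Alb+/Cre; Phgdh flox/flox (n = 6), in which the albumin promoter drives Cre recombinase in hepatocytes, so that other cells of the liver keep the gene. RNA of the whole liver of each mouse was labeled with cyanine 3 and hybridized to 1 single-color array. No group of Cre mice without the floxed alleles was used here.

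The urea cycle converts ammonia and the amino group of aspartate to urea, the form in which mammals excrete nitrogen. It runs in hepatocytes, partly in mitochondria and partly in the cytosol, and its enzymes are most abundant around the portal vein, where blood from the gut enters the lobule. Around the central vein, a narrow ring of hepatocytes takes up the remaining ammonia as glutamine. Transcription of the cycle's genes is known to respond to dietary protein, glucagon and glucocorticoids. Phgdh encodes the first enzyme of serine synthesis from a glycolytic intermediate. The comparison of LKO with Floxed mice therefore asks how these nitrogen genes stood in livers whose hepatocytes carry a deletion in a gene of amino acid synthesis.

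The arrays lay on 3 slides. Slide 1 carried Floxed mice 1 to 4, slide 2 carried Floxed mice 5 and 6 with LKO mice 1 and 2, and slide 3 carried LKO mice 3 to 6. Values are log2 intensities after quantile normalization, and differences are LKO minus Floxed on that scale. Floxed mice had Phgdh at 4.81 to 5.50 and LKO mice at 4.23 to 5.30, with a difference of -0.48 (SE 0.18) that limma called without adjustment (adjusted p = 0.451). The call ended with 75th percentile scaling (-0.34) and with slide as a block (-0.055). The 4 LKO arrays of slide 3 lay below every Floxed array, whereas the arrays labelled LKO 1 (5.07) and LKO 2 (5.30) lay within the Floxed range. These Phgdh values come from a single dim probe, with a mean of 4.94, beside 10.38 for Nags to 17.62 for Ass1 among the 10 genes. The other Phgdh probe pointed the opposite way, at a mean of 2.87 in Floxed and 3.17 in LKO mice. It cleared background on only 4 of the 12 arrays and was not tested. Where either probe lies relative to the deleted part of the gene is not given in the sources used here. The genotypes are therefore those of the labels, and the values of the 10 genes are also given without the arrays labelled LKO 1 and LKO 2.

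By limma, 0 of the 10 genes passed the test in either direction. A gene was called at a limma p under 0.05 without adjustment. The study's array methods name limma's p and do not say whether it was adjusted, and its statistics section names an adjusted p and a minimum fold change, which were run as alternatives. At that criterion 8.35% of all tested genes were called, 4.92% as higher and 3.43% as lower in LKO mice. After Benjamini-Hochberg adjustment over all genes 0 of 16916 genes were called (0%), against 1413 before it and 1236 by the methods' t-test at the same criterion. Of the 10 genes, 6 had a higher mean and 4 a lower mean in LKO mice. Their median difference was 0.030, beside -0.0035 over all tested genes. Differences ranged in size from 0.0053 for Ass1 to 0.18 for Nags. The 95% confidence intervals of all 10 lay between -0.45 and 0.45, that is, between 0.735-fold and 1.37-fold. Floxed and LKO values overlapped for all 10 genes, and 0.296% of all tested genes did not overlap. In whole-liver RNA, fewer cells of a type and less RNA per cell cannot be told apart.

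**Figure D1:**
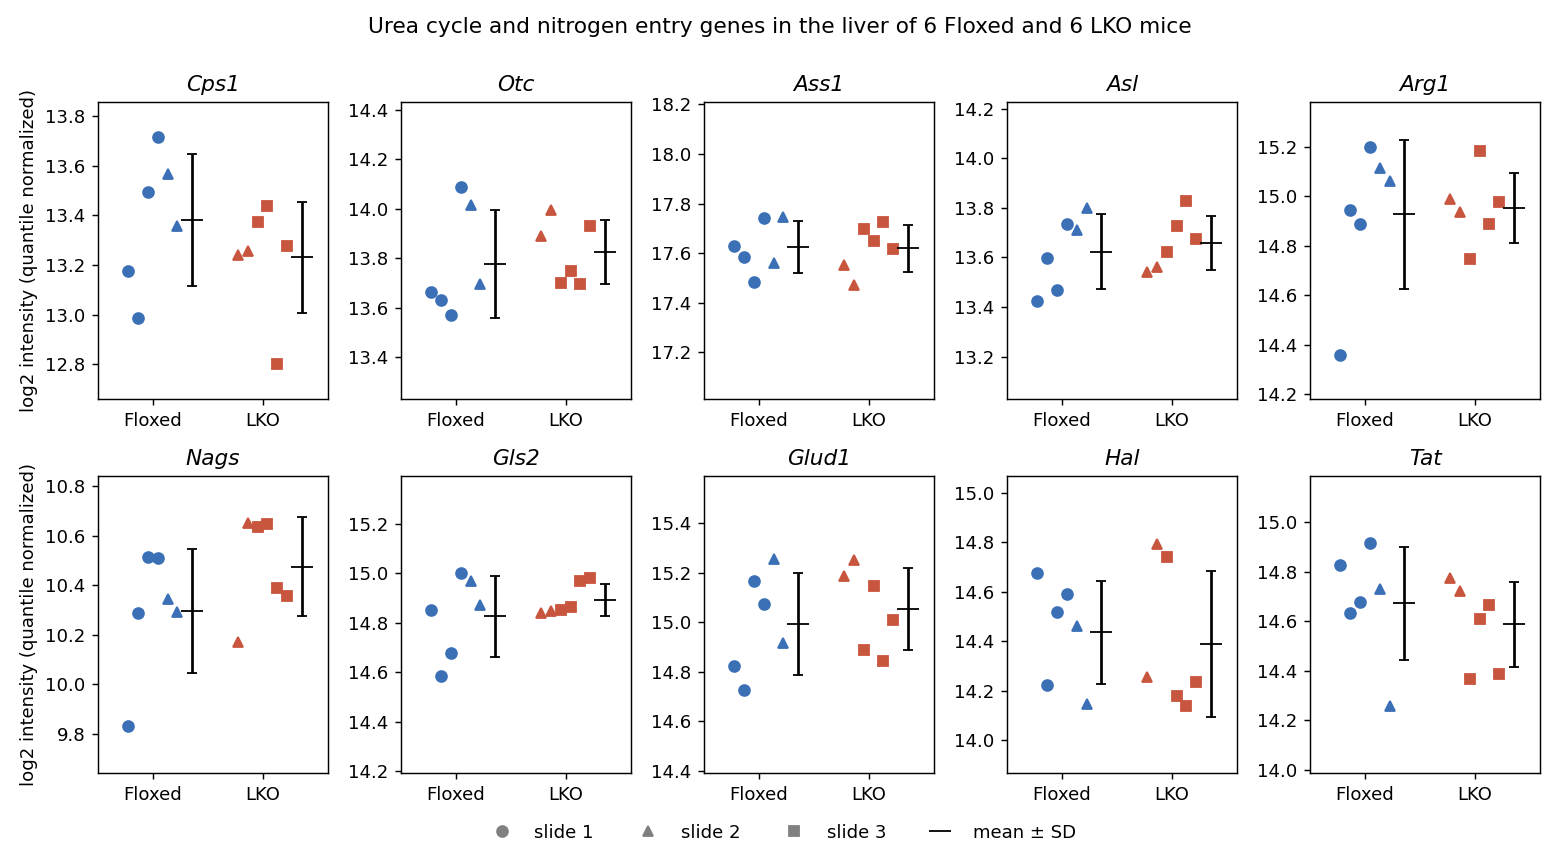
Log2 intensity of each of the 10 genes in every mouse, Floxed (n = 6) and LKO (n = 6), with each genotype's mean and SD. The 2 genotypes overlap in every panel, and the lowest values of Arg1 and Nags are both those of Floxed mouse 1.

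The cycle begins with its activator and its mitochondrial enzymes. Nags makes N-acetylglutamate, without which carbamoyl phosphate synthetase is inactive. Its log2 intensity ran from 9.83 through a median of 10.32 to 10.51 in Floxed mice and from 10.17 through 10.51 to 10.65 in LKO mice. The lowest value was that of Floxed mouse 1, and the other values of both genotypes lay between 10.17 and 10.65. The difference of 0.18 (SE 0.13, 95% interval -0.095 to 0.45) did not pass (exact permutation p = 0.186, limma adjusted p = 0.836), and it was 0.085 without Floxed mouse 1. Compared within same-numbered mice, Nags was higher in the LKO mouse in 6 of 6 pairs. An exact sign-flip test, added after the values were seen, gave p = 0.0312, and limma with the replicate block gave an unadjusted p of 0.0529. The sign-flip p is the smallest this test can give, and it was 0.344 or higher for each of the other genes. Whether the numbers pair the mice was not settled, and in every pair the mice lay on different slides. How many of all tested genes were higher in the LKO mouse of every pair was not counted. Cps1 encodes carbamoyl phosphate synthetase, which fixes ammonia and bicarbonate. Log2 intensities of Cps1 ran from 12.99 through a median of 13.43 to 13.71 in Floxed mice and from 12.80 through 13.27 to 13.44 in LKO mice. LKO mouse 5 was the lowest of all mice. The difference of -0.15 (SE 0.14, 95% interval -0.45 to 0.14) did not pass (exact permutation p = 0.318, limma adjusted p = 0.908). It was -0.065 without LKO mouse 5, -0.084 without Floxed mouse 4 and -0.23 without Floxed mouse 2. Otc encodes ornithine transcarbamylase, which joins carbamoyl phosphate to ornithine to form citrulline. Its log2 intensity ran from 13.57 through a median of 13.68 to 14.09 in Floxed mice and from 13.70 through 13.82 to 14.00 in LKO mice, so that the LKO range lay inside the Floxed range. The difference was 0.049 (SE 0.11, 95% interval -0.18 to 0.28, exact permutation p = 0.656, limma adjusted p = 0.975).

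The remaining steps of the cycle take place in the cytosol. Ass1 encodes argininosuccinate synthetase, which brings in the second nitrogen as aspartate. Log2 intensities of Ass1 went from 17.48 through a median of 17.61 to 17.75 in Floxed mice and from 17.47 through 17.63 to 17.73 in LKO mice. The ranges nearly coincided, with a difference of -0.0053 (SE 0.073, 95% interval -0.16 to 0.15, exact permutation p = 0.929, limma adjusted p = 0.997). With arrays scaled by their 75th percentile instead, the difference was 0.011 and the SE rose to 0.139. Asl encodes argininosuccinate lyase, which releases arginine and fumarate. Values of Asl on the log2 scale ran from 13.43 through a median of 13.65 to 13.80 in Floxed mice and from 13.54 through 13.65 to 13.83 in LKO mice. The medians were the same to this precision, and the difference was 0.036 (SE 0.086, 95% interval -0.15 to 0.22, exact permutation p = 0.641, limma adjusted p = 0.975). Arg1 encodes arginase, which splits arginine into urea and ornithine and so closes the cycle. On the log2 scale, Arg1 ran from 14.36 through a median of 15.00 to 15.20 in Floxed mice and from 14.75 through 14.96 to 15.18 in LKO mice. All mice except Floxed mouse 1 lay between 14.75 and 15.20. The difference was 0.025 (SE 0.13, 95% interval -0.26 to 0.31, exact permutation p = 0.898, limma adjusted p = 0.989), and it was -0.089 without Floxed mouse 1.

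The other 4 genes supply nitrogen to the cycle. Gls2 encodes the liver glutaminase, which frees ammonia from glutamine in the periportal zone. On the log2 scale, Gls2 ran from 14.58 through a median of 14.86 to 15.00 in Floxed mice and from 14.84 through 14.86 to 14.98 in LKO mice. The LKO mice lay close together, within 0.143, while the Floxed mice spanned 0.418. The difference was 0.066 (SE 0.083, 95% interval -0.11 to 0.25, exact permutation p = 0.409, limma adjusted p = 0.950). Glud1 encodes glutamate dehydrogenase, which interconverts glutamate with oxoglutarate and ammonia. Its log2 intensity ran from 14.73 through a median of 14.99 to 15.25 in Floxed mice and from 14.84 through 15.08 to 15.25 in LKO mice. The groups shared most of their range, with a difference of 0.061 (SE 0.11, 95% interval -0.18 to 0.30, exact permutation p = 0.576, limma adjusted p = 0.972).

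Hal and Tat each open the breakdown of 1 amino acid. Hal encodes histidine ammonia-lyase, which removes ammonia from histidine directly. Log2 intensities of Hal went from 14.15 through a median of 14.49 to 14.68 in Floxed mice and from 14.14 through 14.25 to 14.79 in LKO mice. In LKO mice 2 values were high, 14.79 on the array labelled LKO 2 and 14.74 in LKO mouse 3, and the other 4 lay between 14.14 and 14.26. The difference was -0.045 (SE 0.14, 95% interval -0.35 to 0.26, exact permutation p = 0.753, limma adjusted p = 0.977). Tat encodes tyrosine aminotransferase, a textbook target of glucocorticoids. Values of Tat on the log2 scale ran from 14.26 through a median of 14.70 to 14.92 in Floxed mice and from 14.37 through 14.64 to 14.77 in LKO mice. Floxed mouse 6 was the lowest and Floxed mouse 4 the highest, so that the LKO range again lay inside the Floxed range. The difference was -0.086 (SE 0.12, 95% interval -0.34 to 0.16, exact permutation p = 0.472, limma adjusted p = 0.954).

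The exact permutation test given beside each gene was two-sided, took all 924 ways to split the mice 6 against 6, and cannot go below 0.00216. Its p ranged over the 10 genes from 0.186 for Nags to 0.929 for Ass1. Of the 10 genes, 3 had a second probe in the fit over probes. The second probe of Ass1 differed by 0.075 (SE 0.10) and that of Glud1 by -0.0081 (SE 0.11). The second probe of Otc, printed on 10 spots, differed by -0.080 (SE 0.14). In all 3 genes it had the opposite sign to the first probe, and neither probe was called. Without the arrays labelled LKO 1 and LKO 2, the differences of the 10 genes ranged from -0.17 for Tat to 0.21 for Nags and their intervals from -0.52 to 0.51. In that comparison 0 of the 10 genes were called by limma, beside 12.8% of all tested genes, and the smallest unadjusted p among them was 0.151, for Nags. The signs of Otc (-0.0091), Ass1 (0.048) and Glud1 (-0.022) turned.

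**Figure D2:**
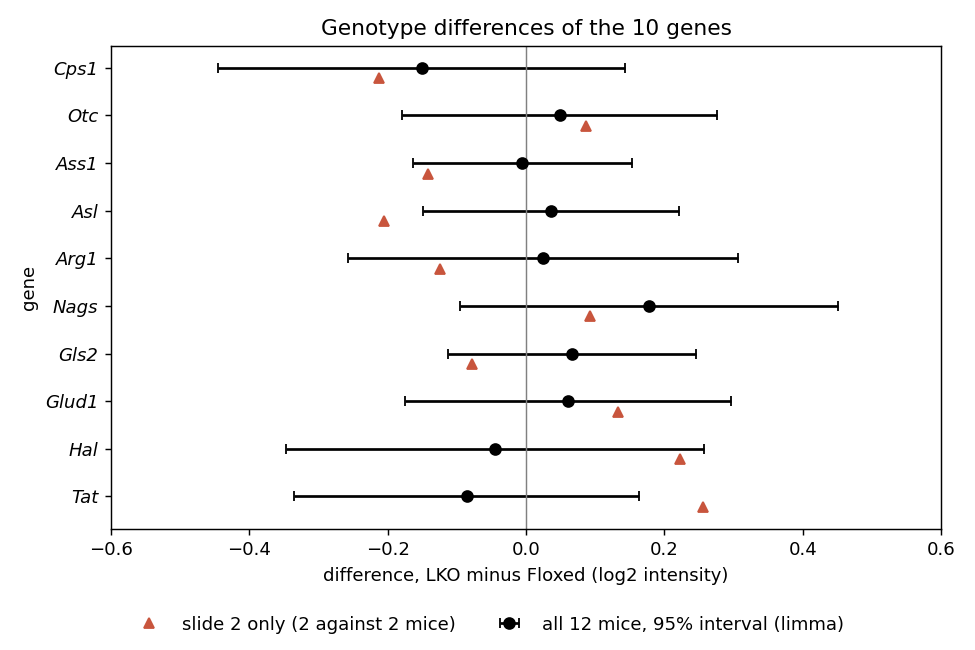
Difference LKO minus Floxed on the log2 intensity scale for the 10 genes, with the 95% confidence interval of the limma fit over all 12 arrays, beside the difference within slide 2. Every interval includes 0, and the slide 2 value has the opposite sign for Asl, Arg1, Gls2, Hal and Tat.

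Within slide 2, some of the genes had the opposite sign to the difference over all mice. Both genotypes were present on slide 2 alone, and within it 5 of the 10 genes kept the sign of the difference over all mice and 5 turned. The LKO arrays of slide 2 are those labelled LKO 1 and LKO 2, whose Phgdh lay within the Floxed range on the tested probe. Values within slide 2 or with slide as a block, here and below, take their genotype difference from these arrays and Floxed mice 5 and 6. Asl was -0.21, Arg1 -0.13 and Gls2 -0.078 within slide 2, whereas Hal was 0.22 and Tat 0.26. With slide as a fixed block the differences are these same values, and 0 of the 10 genes were called by limma, beside 1.87% of all tested genes. The block intervals were wider, from -0.77 at the lowest, for Cps1, to 0.76 at the highest, for Hal, and all 10 included 0. How many of all tested genes turned within slide 2 was not counted, and whether the turned signs exceed the spread between mice was not tested. In Floxed mice, 8 of the 10 genes were higher on slide 2 than on slide 1, and the exceptions were Hal (-0.20) and Tat (-0.27). In LKO mice Hal and Tat were also lower on slide 3 than on slide 2 (-0.20 and -0.24). Hal and Tat thus stepped down from slide 1 to slide 2 within Floxed mice and from slide 2 to slide 3 within LKO mice, while LKO exceeded Floxed within slide 2. Slides 1 and 3 each held 1 genotype, so slide and genotype cannot be told apart there.

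The promoters of Hal and Tat are shown because these genes had the largest slide steps of 1 sign and turned furthest within slide 2. The sequences are RefSeq's for build GRCm38.p6, where 6 of the 10 genes (Ass1, Tat, Hal, Nags, Glud1 and Otc) had an entry. Each is the 250 bases before the transcription start, on the plus strand, and capitals mark every match to the motifs searched. Hal lies on chromosome 10 with its window at chr10:93488518-93488767, and Tat on chromosome 8 with its window at chr8:109990186-109990435.
Hal: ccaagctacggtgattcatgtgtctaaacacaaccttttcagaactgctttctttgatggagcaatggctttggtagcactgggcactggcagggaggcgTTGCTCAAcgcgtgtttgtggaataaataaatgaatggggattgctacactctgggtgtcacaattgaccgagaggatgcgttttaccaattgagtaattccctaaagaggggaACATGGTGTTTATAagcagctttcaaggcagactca
Tat: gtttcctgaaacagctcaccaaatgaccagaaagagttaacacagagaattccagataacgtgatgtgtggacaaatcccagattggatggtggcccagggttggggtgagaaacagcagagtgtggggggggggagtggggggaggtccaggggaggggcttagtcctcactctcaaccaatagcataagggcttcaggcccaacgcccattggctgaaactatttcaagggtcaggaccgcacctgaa
Both strands were searched for TATAAA, the C/EBP motif TTGCNNAA, the cyclic AMP response element TGACGTCA and its shorter form TGACG, the Fox motif TGTTTAC and the glucocorticoid receptor motif ACANNNTGT. Of the 6 windows, Hal alone held any match. It held TTGCTCAA, a form found in 9.56% of 32851 windows, ACATGGTGT, a form found in 5.84%, and TATAAA on the opposite strand, found in 12.4%. The last match shares 1 base with the one before it. The full response element stood in 1.55% of all windows, the shorter form in 17.8% and the Fox motif in 3.17%. These letters describe the windows and are not evidence of binding.

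The spread between mice was compared as a description, with no test. The SD was larger in Floxed mice for 9 of the 10 genes, all but Hal, that is 90.0%, beside 50.5% of all tested genes. The median ratio of the Floxed SD to the LKO SD was 1.29 for the 10 genes and 1.01 for all genes. The mean deviation of the 10 genes from their own means over 12 mice was -0.0064 ± 0.135 in Floxed mice (SD, n = 6) and 0.0064 ± 0.056 in LKO mice (SD, n = 6). In Floxed mice it ran from -0.14 to 0.19, and in LKO mice from -0.068 to 0.086. Floxed mouse 4 had all 10 genes above their means, while Floxed mouse 2 had 2 and Floxed mouse 1 had 3.

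**Figure D3:**
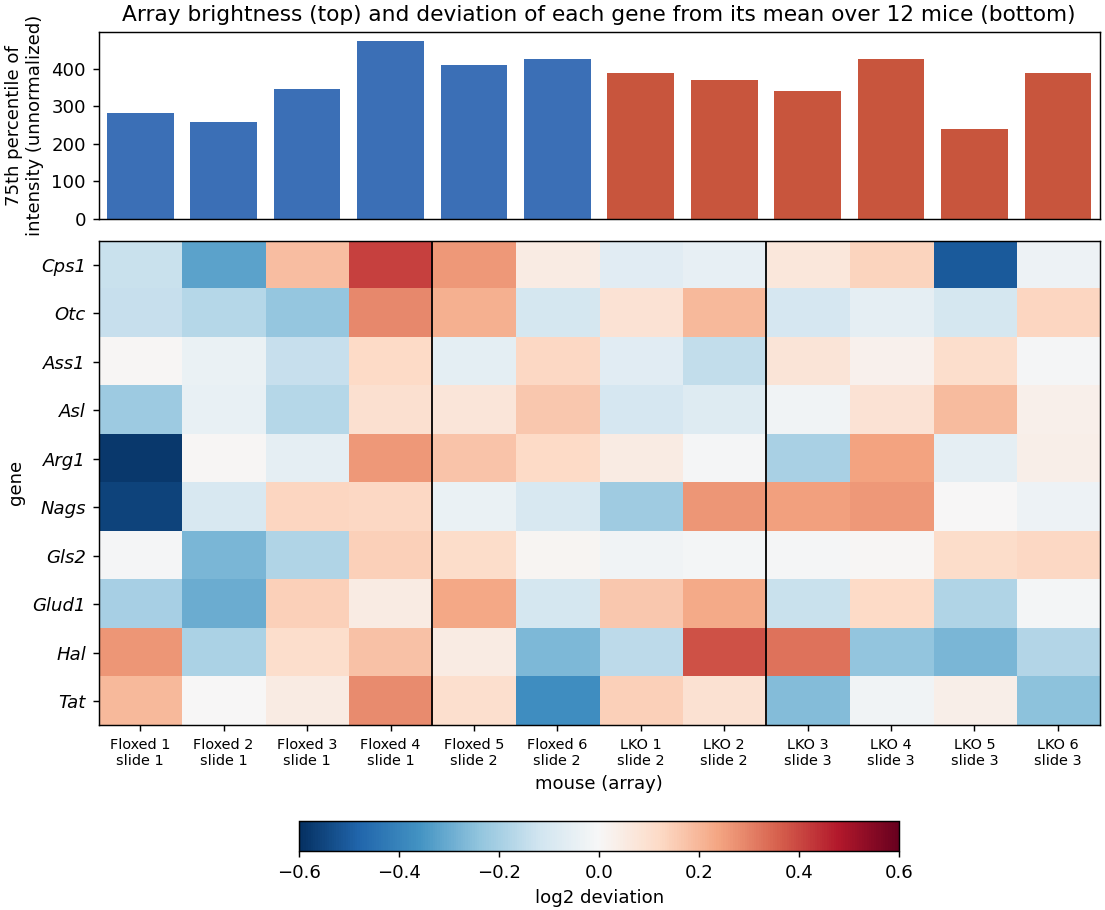
Top, the 75th percentile of the intensity of each array before normalization, one bar per mouse (blue Floxed, red LKO). Bottom, the log2 deviation of each of the 10 genes from its mean over the 12 mice, with black lines between slides. Floxed mouse 4, the brightest array (473), has all 10 genes above their means.

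Array brightness moved with this mean deviation. No such correlation was computed for all tested genes or for genes of like intensity, so whether it is particular to the 10 genes was not tested. The 75th percentile of the intensity before normalization was 258 to 473 on Floxed arrays and 239 to 427 on LKO arrays. Its mean on the log2 scale was 8.48 ± 0.35 (SD, n = 6) in Floxed and 8.46 ± 0.29 (SD, n = 6) in LKO mice. Over the 12 mice the mean deviation correlated with log2 brightness with a Pearson r of 0.765 (permutation p = 0.0036) and a Spearman rho of 0.629 (permutation p = 0.033). Within Floxed mice r was 0.860 (exact permutation p = 0.0375) and rho 0.829 (exact permutation p = 0.0583). Within LKO mice r was 0.659 (exact permutation p = 0.15) and rho 0.314 (exact permutation p = 0.564). Without the 2 mice farthest in brightness, LKO mouse 5 and Floxed mouse 2, r was 0.737 and rho 0.394. A slide holds 4 arrays, too few for a value within slides. The part of brightness in the levels was not tested beyond a fit with brightness as a covariate, in which 0 of the 10 genes were called and Cps1 had the smallest p (0.0899). The genes most like the mean profile of the 10 genes over the 12 mice were Gm5431 (Pearson r = 0.932), Arpc5l (0.930) and Ppid (0.911), given as a description.

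Other genes of nitrogen handling were counted in 7 lists, with 69 of 75 genes tested. Of these 69 genes 1 was called (1.45%), with 41 higher and 28 lower and a median difference of 0.020. Over all tested genes 8.35% were called, and 8258 had a higher mean and 8658 a lower mean in LKO mice. No list was tested as a set. Carriers and helpers of the cycle, which move ornithine, aspartate and urea or supply bicarbonate, had 0 of 10 tested genes called by limma and a median of -0.0029. Slc25a15, the mitochondrial ornithine carrier, differed by -0.022 (SE 0.087), and Slc25a13, the aspartate and glutamate carrier, by 0.016 (SE 0.088). Car5a, the mitochondrial carbonic anhydrase that supplies Cps1 with bicarbonate, differed by 0.18 (SE 0.11, adjusted p = 0.752). Aminotransferases had 0 of 11 called (median -0.0063), breakdown of histidine 0 of 4 (-0.012), of phenylalanine and tyrosine 0 of 9 (0.026), and of tryptophan 0 of 7 (0.039). Breakdown of proline, lysine and branched-chain amino acids had 0 of 18 called and a median of 0.046, with 15 genes higher and 3 lower. Glutamine and ammonia handling had 1 of 11 called and a median of -0.069. Glul, the glutamine synthetase of the central vein, differed by 0.052 (SE 0.12). The called gene was Asns, asparagine synthetase, at -1.18 (SE 0.54, limma adjusted p = 0.598). Its groups overlapped, and leaving out 1 array ended the call for 9 of the 12 arrays. With slide as a block Asns was -2.45 and called.

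Regulators of these genes and targets of the same hormones were counted in a further pair of lists. Both lists were written with earlier results of these data known. Over all tested genes, 4.92% were called higher and 3.43% lower in LKO mice. Of 14 tested transcription factors and hormone receptors, 3 were called lower and 0 higher, with a median of -0.16. Foxa3 and Foxa1 encode liver forkhead factors that open chromatin. Foxa3 differed by -0.65 (SE 0.16, limma adjusted p = 0.273), with no overlap between the groups. It was -0.57 within slide 2 and was called under all 26 tested alternatives. Foxa1 differed by -0.66 (SE 0.22, limma adjusted p = 0.391) and was not called with slide as a block or without the arrays labelled LKO 1 and LKO 2. Insr, the insulin receptor, differed by -0.25 (SE 0.094, limma adjusted p = 0.478) and was called under 23 of 26 tested alternatives. Those that ended its call include the fit without Floxed mouse 5 and slide as a block. Of 18 tested genes listed as responding to glucagon or glucocorticoids, 2 were called higher and 2 lower, with a median of -0.10. Per1, a clock gene that glucocorticoids induce, differed by -1.15 (SE 0.27, limma adjusted p = 0.257) and by -1.51 within slide 2. Pdk4, which inhibits pyruvate dehydrogenase, differed by 1.05 (SE 0.27, limma adjusted p = 0.280) and by 1.87 within slide 2. It was 0.64 and not called for slide 1 Floxed against slide 3 LKO mice. Nr4a1, an immediate early nuclear receptor, differed by 0.99 (SE 0.42, limma adjusted p = 0.541), and leaving out 1 array ended its call for 8 of the 12 arrays. With slide as a block Nr4a1 was 2.39 and called. The other lower gene was Asns, which was also counted in the list of glutamine and ammonia handling. Without the arrays labelled LKO 1 and LKO 2, Asns (-0.65) and Nr4a1 (0.40) were not called, and Foxa3 (-0.56), Per1 (-0.91) and Pdk4 (0.78) were.

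**Figure D4:**
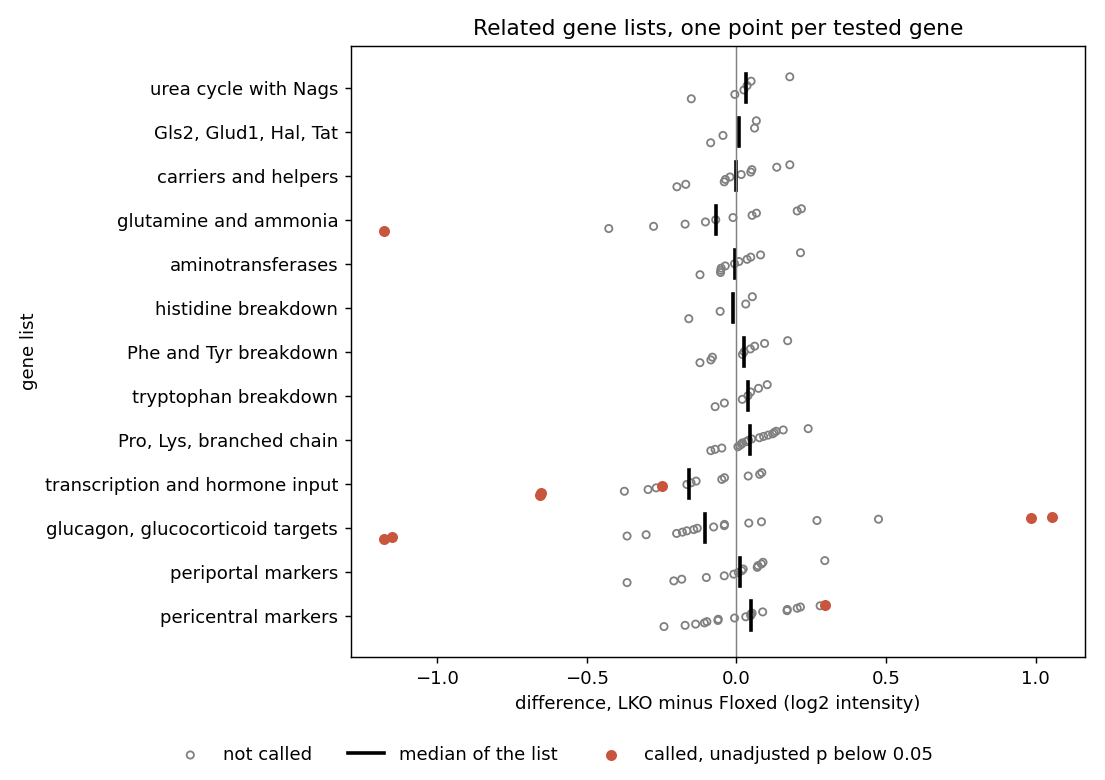
Difference LKO minus Floxed on the log2 intensity scale for every tested gene of the urea cycle and related lists, one point per gene, with each list's median as a bar. Filled points are genes called at an unadjusted limma p below 0.05, and none of them is among the 10 genes in the upper pair of rows.

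Markers of the lobule's zones and of liver cells gave no call that covered a list, and no list was tested as a set. Over all tested genes 8.35% were called, and 8258 had a higher mean and 8658 a lower mean in LKO mice. Of 14 tested periportal markers 0 were called by limma (median 0.012), and of 19 pericentral markers 1 was called (median 0.048). That gene was Lgr5, a receptor of the central vein region, at 0.30 (SE 0.13, limma adjusted p = 0.565), whose call ended without 1 array for 8 of the 12 arrays and, at 0.20, without the arrays labelled LKO 1 and LKO 2. With slide as a block Lgr5 was 0.61 and called. All 10 hepatocyte markers were tested and 0 were called by limma (median 0.0056), with albumin at 18.5 in both genotypes. Serpina1a had the same value, 18.8, on every array after quantile normalization (SD 0 in both genotypes), so its test could not call it. Trf, also near the top of the scale, had SDs of only 0.021 and 0.035, so the normalization limits what these brightest markers can show. Of 76 genes in 9 lists for other cell types, 50 were tested and 2 called. Neither call was kept with slide as a block. Pecam1, an endothelial adhesion protein, differed by 0.70 (SE 0.18, adjusted p = 0.273) and by 0.042 within slide 2, and Slc22a6, a transporter of kidney tubules, by 1.12 (SE 0.34, adjusted p = 0.357) and by 0.037 within slide 2. Of 11 tested Kupffer cell and macrophage markers 0 were called, with 1 higher and 10 lower in LKO mice and a median of -0.093. Their mean deviation ran from -0.42 to 0.83 in Floxed and from -0.63 to 0.50 in LKO mice. The mean deviations of Floxed and LKO mice overlapped in range for all 9 lists, and the part of other cells in the values of the 10 genes was not tested.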

How the data were processed

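Liver RNA of 12 mice was measured on Agilent mouse 4 x 44K v2 arrays, 1 mouse per array. For each array the authors deposited intensity values of every spot from Feature Extraction (version 9.5.1.1 in the submitters' processing notes, 10.7.1.1 in the file headers), corrected for background and spatial trends within the array and not normalized between arrays. They also deposited a table of quantile-normalized intensity values per probe, on a linear scale. The deposited flags, another kind of column, mark spots as outliers, saturated or well above background.

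From these files, control spots were removed, the log2 of the processed intensity was quantile-normalized over arrays, spots flagged as outliers (0.298%) were set to missing, and spots of a probe were averaged. The 20404 probes flagged well above background on every array were tested, because the detection p-value named in the methods was not at hand. Probes were named through RefSeq accessions (94.3% of 28389 matched), and the brightest probe stood for a gene. Groups came from the sample titles and slides from the barcode in the name of each array's deposited data. Genotypes were compared with limma 3.58.1 in R 4.3.3 (lmFit, eBayes) without covariates, with Benjamini-Hochberg adjustment over all genes. The number of arrays limits the precision. Alternatives changed the scaling, background, filter, probe, slide, test and arrays used. Array brightness as a covariate, the comparison without the arrays labelled LKO 1 and LKO 2 and a sign-flip test within same-numbered mice were added after the data were seen. The fit was tested on simulated data. The 10 genes and all lists were chosen with earlier results of these data known. All 10 genes were named with values, and of the lists every called gene. Slc25a15, Slc25a13, Car5a and Glul were named for their roles, after their values were seen.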

Additional observations from a re-analysis of the deposited data

Results flagged for a closer look

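Of 26 sets of 6 values checked, 3 held a mouse whose gap to its nearest neighbor was large for the range of its group, where chance flags about 1 in 20 sets. Cps1 in LKO mouse 5 was 12.80, while the other LKO mice lay between 13.24 and 13.44. Arg1 in Floxed mouse 1 was 14.36, with the other Floxed mice between 14.89 and 15.20. Nags in Floxed mouse 1 was 9.83, with the other Floxed mice between 10.29 and 10.51. LKO mouse 5 had the dimmest of the 12 arrays (239) and Floxed mouse 1 one of the dimmer ones (283), and the part of brightness in these values was not tested.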

How the results depend on the processing

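Over 27 alternatives per gene, the 10 genes gave 270 values, and 0 of the 260 tested had an unadjusted p below 0.05 (the smallest was 0.0529, for Nags with the replicate block). Of the 270 values 28 had the opposite sign. With slide as a fixed block, and equally within slide 2, Asl was -0.206, Arg1 -0.125, Gls2 -0.0778, Hal 0.223 and Tat 0.255. Ass1 was 0.0106 with 75th percentile scaling, 0.0235 with normexp background, 0.0346 with the mean of its probes, 0.00696 with slide as a random block, 0.0632 for slide 1 against slide 3 and 0.0482 without the arrays labelled LKO 1 and LKO 2. Otc was -0.0154 with the mean of its probes and -0.00913 without the arrays labelled LKO 1 and LKO 2, where Glud1 was -0.0218. Leaving out 1 mouse at a time, Cps1 ran from -0.230 to -0.0646, Nags from 0.0853 to 0.239, Ass1 from -0.0336 to 0.0240, Asl from -0.00393 to 0.0712, Arg1 from -0.0886 to 0.0794 and Hal from -0.126 to 0.00538.

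The count of genes called among all tested was 2791 with no filter on dim probes, 317 with slide as a fixed block, 2172 without the arrays labelled LKO 1 and LKO 2, 88 with a log2 fold change of at least 1 and 0 after adjustment, against 1413 in the main analysis. Leaving out 1 mouse at a time it ran from 1103 to 1837. The share of called genes that were higher in LKO mice was 58.9%, and 78.1% with 75th percentile scaling. Mice that share a number in both genotypes have adjacent animal numbers in the sample titles, and the paper states that the controls were littermates. No label says that a shared number marks a litter. Deviations of such mice correlated over 0.1 in 3 of 6 pairs, and 2 of 6 Floxed mice were closest to their own number. In every pair the mice lay on different slides, which limits this check. Whether the numbers pair the mice was not settled, and the unpaired test was kept as the main one. The replicate block gave 1428 calls and 0 among the 10 genes, and with it Nags was 0.178 (SE 0.0780). How many of all tested genes were higher in the LKO mouse of every pair was not counted. Nags was higher in the LKO mouse in 6 of 6 same-numbered pairs, by 0.0451 to 0.36. A two-sided exact sign-flip test over the 64 sign patterns, added after these values were seen, gave 0.0312 for Nags, the smallest p it can give, and 0.344 to 1 for the other 9 genes. The causes were not tested.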
